A study of Mus musculus with 9 samples.

Results

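The transcription factor p53, encoded by Trp53 in the mouse, and 9 genes that it can activate were followed across 3 culture conditions of mouse embryonic stem (ES) cells. The 10 genes were chosen by name, as entries of the deposited expression table named Trp53, Mdm2, Perp, Phlda3, Btg2, Ccng1, Zmat3, Bbc3, Pmaip1 or Trp53inp1, from 24044 entries with a gene name. They and the gene lists below were chosen with earlier results of these data known. Their counts beside the share of all genes are therefore a description and not a test of the set. Each of the 10 was found once and passed the filter for testing, so none was left out. RNA came from 3 established ES cell lines, E14, v6.5 and Oct4 GiP (an Oct4 reporter line), at passages 20 to 23. Each line was kept on gelatin for 2 weeks in Serum, in 2i or in Paused conditions, which gave 9 libraries, 1 per line and condition. Paused cells received INK128, an inhibitor of the kinase mTor, at 200 nM for 2 weeks. In the field, 2i is a medium with a MEK inhibitor and a GSK3 inhibitor; the labels used here give neither its composition nor the medium in which INK128 was added. Spike-in RNA was added to all libraries, the lines are the replicates (n = 3 per condition), and the sources used here do not say whether any line carries an altered Trp53 gene.

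As background, p53 is a tetrameric DNA-binding protein that is stabilised by DNA damage and other stress. It activates genes that arrest the cell cycle, repair DNA or trigger apoptosis, and also Mdm2, whose protein marks p53 for degradation and so closes a feedback loop. In ES cells p53 is abundant, and its activation is known to lower Nanog and to favour differentiation. Because p53 is controlled mainly at the level of protein, the mRNA of Trp53 and the mRNA of its targets are separate readouts, and neither protein nor DNA binding was analysed here.

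Values are FPKM, fragments scaled to transcript length and to a measure of library size, so levels can be compared between genes. Which measure of library size was used is not given. The depth of the libraries in reads is unknown. The deposited table also holds a second value per library, which is FPKM times 1 constant per library. Its mean was 3.59 for Serum libraries, 2.80 for 2i and 1.88 for Paused, and on that scale the median of all 12711 tested genes moved by -0.88 (log2) from Serum to Paused, by -0.33 from Serum to 2i and by -0.56 from 2i to Paused. In FPKM the same medians were -0.01, 0.02 and -0.03. The sources used here do not say how the constant was made, so changes below are in FPKM, relative to that shift, with the authors' scale named where it alters a call. As a check of the labelled cell type, 7 ES cell markers (Pou5f1, Sox2, Nanog and others) were summed. The sums were 4297 to 5522 FPKM in Serum, 3736 to 4430 in 2i and 6075 to 6393 in Paused, and none was listed at 0. Single markers went different ways: Utf1 had 508 to 719 FPKM in Serum and 85.3 to 175 in 2i, Nanog 42.8 to 239 and 329 to 383. In Paused against Serum 1 of the 7 was called higher and 0 lower (7.64% and 10.5% of all tested genes). On the authors' scale 0 were higher and 4 lower (0.378% and 76.9%).

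Across the 9 libraries Trp53 was the most abundant of the 10 genes in every condition, with a mean (± SD, n = 3) of 386 ± 31.6 FPKM in Serum, 395 ± 22.2 in Paused and 267 ± 4.57 in 2i. By their means the other genes in Serum ranked Ccng1 (62.5 ± 5.34), Mdm2 (51.8 ± 7.82), Phlda3 (50.8 ± 2.5), Perp (33.5 ± 5.2), Bbc3 (29 ± 4), Trp53inp1 (25.8 ± 5.75), Zmat3 (17.3 ± 1.59), Pmaip1 (15.3 ± 16.8) and Btg2 (11.7 ± 1.74). In that order the libraries of neighbours overlapped except between Phlda3 and Perp and between Trp53inp1 and Zmat3. In 2i the ranks ran from Ccng1 (83.4 ± 19.7) and Phlda3 (76 ± 12.5) over Mdm2 (59.3 ± 10.1), Trp53inp1 (46.2 ± 10.1), Bbc3 (27 ± 4.59), Btg2 (17.7 ± 5.94), Zmat3 (15.6 ± 1.26) and Perp (11.5 ± 5.5) to Pmaip1 (2.81 ± 3.22), where the libraries of Trp53inp1 and Bbc3 and of Bbc3 and Btg2 did not overlap. Paused cells had Mdm2 (36.9 ± 6.81), Ccng1 (35.4 ± 8.41) and Bbc3 (27.6 ± 5.7) highest after Trp53, then Trp53inp1 (19.9 ± 6.51), Phlda3 (19.1 ± 3.72), Pmaip1 (15.8 ± 17.3), Zmat3 (11.5 ± 1.48), Perp (9.74 ± 0.892) and Btg2 (4.05 ± 0.783). Below Trp53, all neighbours overlapped except Zmat3 with Perp and Perp with Btg2. Phlda3 and Btg2 took lower ranks in Paused than in 2i. Mdm2, Phlda3, Btg2 and Ccng1 were highest in 2i, lower in Serum and lowest in Paused within each of the 3 lines. These were 4 of the 10 genes, against 7.76% of all tested genes (987 of 12711) with that order in every line. This order was not planned and was chosen with the data seen, so the counts are a description and not a test. On the authors' scale the order was found for Phlda3 and Trp53inp1, 2 of the 10, against 1637 of the 12711 tested genes.

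**Figure D1:**
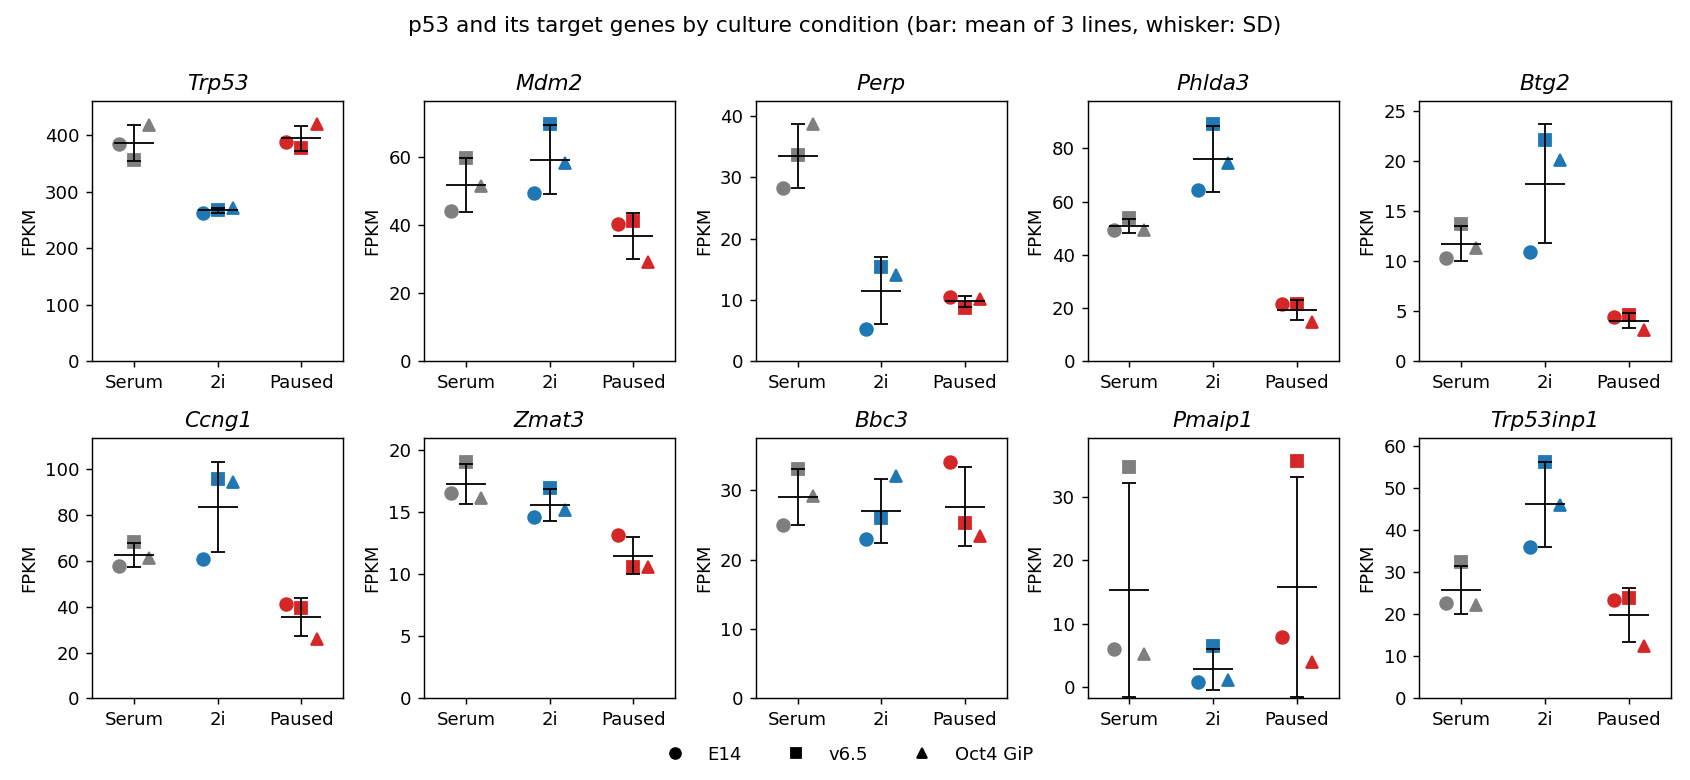
FPKM of the 10 genes (vertical axes, from 0 except where the SD of Pmaip1 reaches below it) in Serum, 2i and Paused, with 1 point per library and a symbol for each line; the bar is the mean of 3 lines and the whisker the SD. Mdm2, Phlda3, Btg2 and Ccng1 step down from 2i to Serum to Paused in each line, Trp53 dips in 2i, and the v6.5 libraries stand far above the others for Pmaip1.

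For genes of the 10 with an entry, the 250 bases before the annotated start were searched on both strands for the p53 half-site consensus. A full site holds a pair of these side by side with no spacer. The sequences are from RefSeq on build GRCm38, the mm10 build that the submitters' processing notes name, and 6 of the 10 genes had an entry. They are printed 5′ to 3′ on the strand of the gene, for the 3 members with an exact half-site, and capitals mark the full site or, for Mdm2, the half-site.
Ccng1, chr11:40755422-40755521, minus strand: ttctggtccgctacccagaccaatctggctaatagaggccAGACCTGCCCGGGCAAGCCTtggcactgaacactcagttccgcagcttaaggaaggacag
Mdm2, chr10:117710895-117710984, minus strand: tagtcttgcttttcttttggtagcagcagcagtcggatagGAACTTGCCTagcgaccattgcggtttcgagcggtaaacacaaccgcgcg
Trp53, chr11:69580244-69580343, plus strand: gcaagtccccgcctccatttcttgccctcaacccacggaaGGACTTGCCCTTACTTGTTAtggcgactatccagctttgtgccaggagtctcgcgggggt
The capitals in Ccng1 begin 195 bases before the start and differ from a full site at 1 position; a full site with at most 1 mismatch is found in 0.0578% of 32851 windows of the same length (19). The half-site of Mdm2 lies 186 bases before the start, and an exact half-site is found in 7.13% of windows (2341). The capitals in Trp53 begin 75 bases before the start and differ from a full site at 3 positions, and a full site with at most 3 mismatches is found in 1.14% of windows (374). In Bbc3 a full site with 3 mismatches was found in 1 of its 3 windows, and the windows of Btg2 and Phlda3 hold no match of these letters. Among 38 other p53 targets with a window, Cdkn1a, Ckap2 and Rps27l held a full site with at most 2 mismatches, as did 0.271% of all windows. A match describes letters and is not a measured binding site. Sequence outside the 250 bases was not searched, so a window without a match does not mean a gene without a site.

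Trp53 itself (chromosome 11, 69580359 to 69591873, plus strand, in GENCODE vM21 on GRCm38) was lower in 2i than in either other condition. In the order E14, v6.5 and Oct4 GiP, which holds for all lists of values below, it stood at 384, 356 and 419 FPKM in Serum, at 262, 267 and 271 in 2i, and at 388, 377 and 419.5 in Paused. The 3 libraries of 2i all lay below the other 6, while Serum and Paused overlapped. Trp53 fell in 2i against Serum (log2 fold change -0.53 ± 0.07 SE, limma adjusted p = 0.0030) and was higher in Paused than in 2i (0.56 ± 0.07, adjusted p = 0.0020). Paused and Serum differed by 0.03 ± 0.07 (adjusted p = 0.77), which turned to -0.90 on the authors' scale, where Paused and 2i differed by 0.00. The mouse genome holds a processed pseudogene of Trp53, so how reads were shared with it is uncertain.

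Mdm2, the ubiquitin ligase that restrains p53 (chromosome 10, 117688875 to 117710758, minus strand), went the other way to Trp53 between 2i and Paused in FPKM. Its FPKM were 44.1, 59.7 and 51.5 in Serum, 49.6, 69.7 and 58.4 in 2i and 40.4, 41.2 and 29.1 in Paused. Every Paused library lay below every library of the other conditions, and Serum and 2i overlapped. Against 2i, Mdm2 fell in Paused by 0.67 ± 0.15 on the log2 scale (adjusted p = 0.012), to 0.623 of the mean. Against Serum the difference of -0.48 ± 0.15 did not pass the test (adjusted p = 0.064), although each line showed its direction (-0.12, -0.52 and -0.80). It was called lower (-1.41) on the authors' scale.

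Ccng1, Btg2 and Phlda3 encode cyclin G1, which recruits a phosphatase to Mdm2, an antiproliferative partner of the mRNA deadenylase complex, and a small membrane-binding protein that restrains Akt. Ccng1 (chromosome 11, 40748552 to 40755311, minus strand) stood at 57.8, 68.3 and 61.3 FPKM in Serum, at 60.6, 95.3 and 94.1 in 2i and at 40.9, 39.5 and 25.7 in Paused. Btg2 (chromosome 1, 134075170 to 134079120, minus strand) stood at 10.3, 13.7 and 11.3 FPKM in Serum, at 10.9, 22.1 and 20.1 in 2i and at 4.41, 4.59 and 3.15 in Paused. In both genes all Paused libraries were lowest, and of the 2i libraries that of E14 lay within the range of Serum. Phlda3 (chromosome 1, 135766119 to 135769136, plus strand) had 49.2, 53.7 and 49.5 FPKM in Serum, 64.3, 89.1 and 74.5 in 2i and 21.3, 21.3 and 14.8 in Paused. Its 3 conditions did not overlap at all.

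All 3 genes were lower in Paused than in either other condition. Phlda3 fell by 1.94 ± 0.14 on the log2 scale against 2i (adjusted p = 0.00054), to 0.252 of the mean, and by 1.38 ± 0.14 against Serum (adjusted p = 0.0099). Btg2 fell by 1.85 ± 0.22 against 2i (adjusted p = 0.0017), to 0.228 of the mean, and by 1.34 ± 0.22 against Serum (adjusted p = 0.017). For Ccng1 the falls were 1.21 ± 0.22 (adjusted p = 0.0063) and 0.83 ± 0.22 (adjusted p = 0.046). Between 2i and Serum Phlda3 was higher in 2i by 0.56 ± 0.14 (adjusted p = 0.022), but this was not called on the authors' scale (0.20) or after libraries were centred on their median (0.45, adjusted p = 0.053). Btg2 (0.51 ± 0.22, adjusted p = 0.11) and Ccng1 (0.38 ± 0.22, adjusted p = 0.20) were not called there.

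Zmat3 encodes an RNA-binding zinc finger protein and Trp53inp1 a stress protein that acts in p53 signalling and autophagy. Zmat3 (chromosome 3, 32334792 to 32366014, minus strand) stood at 16.6, 19.1 and 16.2 FPKM in Serum, at 14.6, 17.0 and 15.2 in 2i and at 13.2, 10.6 and 10.6 in Paused, where all 3 libraries were lowest. It fell in Paused against Serum (-0.56 ± 0.12, adjusted p = 0.029) and against 2i (-0.42 ± 0.12, adjusted p = 0.031), the latter not called after median centring (adjusted p = 0.070). Trp53inp1 (chromosome 4, 11156431 to 11174379, plus strand) had 22.8, 32.5 and 22.2 FPKM in Serum, 36.1, 56.4 and 46.0 in 2i and 23.5, 23.8 and 12.4 in Paused. Its 2i libraries all lay above the other 6, and Serum and Paused overlapped. Trp53inp1 rose in 2i against Serum (0.81 ± 0.21, adjusted p = 0.025; 0.052 without the line as a block) and was lower in Paused than in 2i (-1.21 ± 0.21, adjusted p = 0.0059), while Paused against Serum was not called (-0.39 ± 0.21, adjusted p = 0.23; -1.32 and called on the authors' scale). The rise in 2i was not called on that scale (0.46).

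The apoptosis genes Bbc3 and Pmaip1 did not share that pattern. Bbc3 (chromosome 7, 16308393 to 16318205, plus strand) encodes Puma, a BH3-only protein that binds and blocks the survival proteins of the BCL2 family. It stood at 25, 33 and 29.1 FPKM in Serum, at 23, 26 and 32 in 2i and at 34.1, 25.3 and 23.4 in Paused. The 3 conditions overlapped, the highest library was Paused E14, and no comparison was called in FPKM (-0.08 ± 0.20, adjusted p = 0.80 for Paused against Serum; -0.10 ± 0.20, 0.70 for 2i against Serum; 0.02 ± 0.20, 0.94 for Paused against 2i). Bbc3 was called lower in Paused on the authors' scale, against Serum (adjusted p = 0.0019) and against 2i (-0.53, adjusted p = 0.036).

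Pmaip1 (chromosome 18, 66458533 to 66465565, plus strand) encodes Noxa, another BH3-only protein, which targets the survival protein Mcl1. Its FPKM were 6.07, 34.7 and 5.19 in Serum, 0.75, 6.53 and 1.16 in 2i and 7.83, 35.7 and 3.87 in Paused. Within each condition v6.5 was highest, with a mean over conditions of 25.6 FPKM against 4.88 in E14 and 3.41 in Oct4 GiP, and the highest library held 47.5 times the lowest. The conditions therefore overlapped, but each line was lower in 2i, by -2.01, -2.25 and -1.52 (log2) against Serum. With the line as a block Pmaip1 fell in 2i against Serum (-1.93 ± 0.23, adjusted p = 0.0023) and was higher in Paused than in 2i (1.93 ± 0.23, adjusted p = 0.0018). Without the block the adjusted p were 0.15 and 0.14. Paused and Serum differed by 0.00 ± 0.23 (adjusted p = 0.99), and by -0.89 on the authors' scale.

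In an F test over the 3 lines (limma, with the condition as a block), Pmaip1 was the only one of the 10 genes called (adjusted p = 0.036), against 1.5% of all tested genes (191 of 12711). That call was lost with no filter on low values and with the block left out. With a single library out, it was lost when any of the 3 Serum libraries, 2i v6.5, Paused E14 or Paused v6.5 was left out. In the fits where it was lost, 7 to 44 of all genes were called.

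Perp (chromosome 10, 18845020 to 18857073, plus strand) encodes a membrane protein of desmosomes that is also an apoptosis effector. It stood at 28.3, 33.6 and 38.7 FPKM in Serum, at 5.23, 15.3 and 14.1 in 2i and at 10.4, 8.73 and 10.1 in Paused. All Serum libraries were highest, and 2i and Paused overlapped. Perp fell in 2i (-1.57 ± 0.29, adjusted p = 0.0084) and in Paused (-1.68 ± 0.29, adjusted p = 0.020) against Serum, to 0.344 and 0.291 of the mean, and Paused and 2i differed by -0.11 ± 0.29 (adjusted p = 0.79). Sums of markers of 2 other kinds of cell were also highest in Serum. The 10 trophoblast markers, of which Krt8 and Krt18 made the largest part in Serum, summed to 67.5 to 326 FPKM in Serum, 50 to 75.1 in 2i and 29.3 to 51.5 in Paused, with Elf5 under 1 FPKM throughout. This list was mixed. Of 7 tested markers 4 fell in 2i and 4 in Paused against Serum, beside 18.9% and 10.5% of all tested genes. Tfap2c had means of 29.9 FPKM in Serum, 42.9 in 2i and 17 in Paused, and Eomes of 2.13, 4.1 and 0.937. A sum of 7 fibroblast markers ran from 31.6 to 138 FPKM in Serum, 3.88 to 5.11 in 2i and 7.35 to 13.9 in Paused, with Col1a2, Col3a1 and Postn under 1 FPKM in each condition. In Serum most of this sum was Tagln (114, 22.5 and 55.8 FPKM), followed by Acta2 (12.5, 4.97 and 8.29), so it rests mainly on 1 gene. A sum of 8 primitive endoderm markers was not highest in Serum, with 7.65 to 16.4 FPKM there, 15.2 to 19.3 in 2i and 14.3 to 17.5 in Paused, and Gata6, Sox17, Sox7, Pdgfra and Foxq1 were under 1 FPKM in each condition. Within Serum the trophoblast sum was highest in E14 (326), where Perp was lowest (28.3), and lowest in v6.5 (67.5). Whether trophoblast or fibroblast cells were present, and any part of theirs in the change of Perp, was not tested. In bulk RNA fewer cells of a type and less RNA per cell cannot be told apart.

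**Figure D2:**
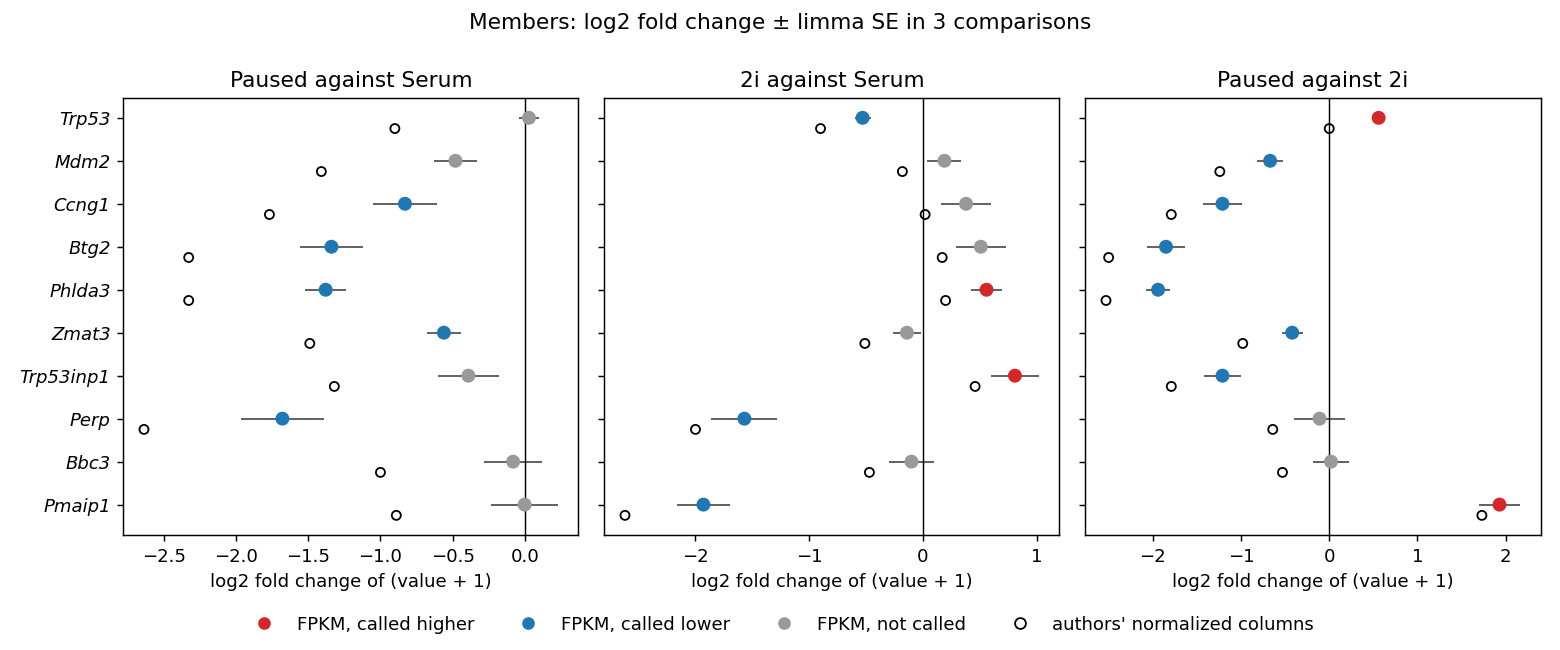
Log2 fold change of (value + 1) for the 10 genes in the 3 comparisons, with filled points for FPKM and whiskers for the limma SE, coloured by call, and open points for the authors' normalized columns. In FPKM Phlda3, Btg2, Ccng1 and Zmat3 are lower in Paused against either condition and Trp53 and Pmaip1 are lower in 2i; on the authors' scale all 10 lie left of 0 in Paused against Serum.

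The comparison of Paused with Serum asks how p53 target mRNA stood under mTor inhibition. Perp, Phlda3, Btg2, Ccng1 and Zmat3 fell, 5 of the 10 genes, against 10.5% of all tested genes lower, and 0 rose in the limma fit, also at an unadjusted p under 0.05, against 7.64% higher. The median log2 fold change of the 10 genes was -0.52, beside -0.01 over all tested genes. In the authors' normalized values all 10 were called lower, where 76.9% of all tested genes were lower and 0.378% higher. Fewer calls were made with a Serum or Paused library left out, among the 10 genes and among all genes (2311 with all libraries). Without Serum E14 1 of the 10 was called (729 of all genes), without Serum v6.5 1 (787) and without Serum Oct4 GiP 0 (12). Without Paused E14 1 of the 10 was called (38 of all genes), without Paused v6.5 0 (38) and without Paused Oct4 GiP 0 (16). With any of the 3 lines left out 0 of the 10 and 4 to 7 of all genes were called. At an unadjusted p under 0.05 in limma, 6 of the 10 were lower with all libraries and 5 to 7 with a library or line left out. All 5 genes were lower in Paused than in Serum within each of the 3 lines.

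Of 44 further p53 targets 40 were tested in Paused against Serum. There, 10 fell, 4 rose and 26 were not called, with a median of -0.45, beside 10.5% lower and 7.64% higher among all tested genes. On the authors' scale 34 fell and 0 rose, where 76.9% of all tested genes were lower and 0.378% higher. Cdkn1a, which encodes the CDK inhibitor p21, was at 24.8, 27.7 and 23.5 FPKM in Serum and at 16.0, 11.8 and 12.5 in Paused, and fell by 0.88 ± 0.17 on the log2 scale (adjusted p = 0.022). Sfn (the epithelial 14-3-3 protein sigma) fell from 106 ± 30.0 to 20.5 ± 2.77 FPKM (-2.28 ± 0.40), and in Serum its libraries (130.2, 72.3 and 115) ranked as the trophoblast sum did. The kinase gene Plk2 fell from 28.7 ± 2.34 to 9.69 ± 2.71 FPKM, and the ribosomal protein paralog Rps27l, which may share reads with its copies, from 765 ± 64.0 to 395 ± 17.1 FPKM. Sesn2, a stress-induced inhibitor of mTor complex 1, fell from 52.8 ± 9.51 to 35.0 ± 8.10 FPKM (-0.59 ± 0.08, adjusted p = 0.014; 0.073 without the block). Pltp, a lipid transfer protein, and Ei24, an endoplasmic reticulum protein, were higher (0.86 ± 0.21 and 0.73 ± 0.13), with adjusted p = 0.065 and 0.071 without the block and differences of -0.04 and -0.19 on the authors' scale. Without the block 9 of these targets were called. With libraries left out, 0 were called without Serum Oct4 GiP, Paused E14 or Paused Oct4 GiP (12, 38 and 16 of all genes). There was 1 without Paused v6.5 (38 of all genes), 3 without Serum E14 (729) and 9 without Serum v6.5 (787), where 2311 of all genes were called with all libraries. In the fits without Serum Oct4 GiP or a Paused library, 12 to 21 were lower and 4 to 6 higher at an unadjusted p under 0.05.

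Regulators of p53 and members of the BCL2 family were read beside the targets. Of 32 tested regulators 5 rose and 3 fell in Paused against Serum (4 called without the block), with a median of 0.05, beside 7.64% higher and 10.5% lower among all tested genes. The DNA damage kinase genes Atr (6.12 ± 1.12 to 11.5 ± 0.248 FPKM; 0.83 ± 0.12) and Atm (9.08 ± 1.88 to 14 ± 1.95 FPKM; 0.59 ± 0.12, adjusted p = 0.026; 0.069 without the block), the deacetylase Sirt1 (0.79 ± 0.13) and the acetyltransferase Crebbp (0.53 ± 0.09) rose, though on the authors' scale all 4 were at or below 0 (-0.01, -0.28, -0.12 and -0.36). Wrap53 fell (-0.47 ± 0.09), as did the phosphatase Ppm1d, itself a p53 target (-0.42 ± 0.11, adjusted p = 0.049; 0.16 without the block). Mdm4, the relative of Mdm2 that also binds p53, was not called (0.29 ± 0.13, adjusted p = 0.16).

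In the BCL2 family 1 of 11 tested genes rose and 3 fell (3 called without the block), beside the same 7.64% and 10.5%. The BH3-only gene Bmf rose from 2.29 ± 0.973 to 9.56 ± 3.91 FPKM (1.65 ± 0.17, adjusted p = 0.0099), also on the authors' scale (1.04). Bad fell (-0.81 ± 0.10), as did Bok (-0.75 ± 0.18, adjusted p = 0.038; 0.065 without the block) and the survival gene Bcl2l1 (-0.52 ± 0.14). Bax, the p53-responsive pore former, was at 442 ± 9.92 and 370 ± 28.3 FPKM (-0.26 ± 0.08, adjusted p = 0.077). Of 15 tested genes of desmosomes and tight junctions 3 fell beside Perp (1 without the block): Cldn7, a claudin (-1.01 ± 0.22, adjusted p = 0.028; 0.099 without the block), and the desmosome genes Dsp (-0.97 ± 0.18, adjusted p = 0.021; 0.13 without the block) and Pkp2 (-0.91 ± 0.23). On the authors' scale 28 of 32 regulators, 9 of 11 BCL2 genes and 12 of 15 junction genes were lower, where 76.9% of all tested genes were. Bmf was the only gene of these lists that was higher, where 0.378% of all tested genes were. None of the 3 lists had a gene called without Serum Oct4 GiP, without any of the 3 Paused libraries or with a line left out. In those fits 4 to 38 of all genes were called, against 2311 with all libraries. The counts of the 3 lists without Serum E14 were 4, 2 and 2 (729 of all genes). They were 3, 2 and 1 without Serum v6.5 (787), and 5, 2 and 3 without 2i Oct4 GiP (1483). In the same fits with no call, at an unadjusted p under 0.05 in limma, 5 to 6 regulators were higher and 3 to 5 lower, 2 to 3 BCL2 genes were higher and 3 to 5 lower, and 0 to 2 junction genes were higher and 4 to 5 lower.

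Cells in 2i were compared with cells in Serum in the same way; each condition enters 2 of the 3 comparisons, which are therefore not independent. Trp53, Perp and Pmaip1 fell, 3 of the 10 genes, against 18.9% of all tested genes lower, and Phlda3 and Trp53inp1 rose, 2 of the 10, against 21.7% higher. After median centring, all genes split into 2181 higher and 3263 lower, instead of 2762 and 2399. The median of the 10 genes was 0.04, beside 0.02 over all tested genes. On the authors' scale 4 were lower (Zmat3 was added), where 35.7% of all genes were, and 0 were higher, where 9.76% of all genes were. The 3 falls were called with each of the 9 libraries left out in turn. The rises of Phlda3 and Trp53inp1 were each called in 4 of those 9 fits. Without Serum E14, Serum v6.5, Serum Oct4 GiP, 2i v6.5 or 2i Oct4 GiP, 3 of the 10 genes were called. In those fits 2969 to 4080 of all genes were called, against 5161 with all libraries. With the line v6.5 left out 3 of the 10 and 2673 of all genes were called, and with Oct4 GiP left out 1 and 1269.

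Among the other targets in 2i against Serum, 10 of 40 rose and 5 fell, with a median of 0.12. Among all tested genes 21.7% were higher and 18.9% lower. Cdkn1a rose to 98.6, 107 and 134 FPKM in 2i, from 24.8, 27.7 and 23.5 in Serum (2.11 ± 0.17, adjusted p = 0.0009), so all 2i libraries lay far above Serum. The sestrin genes, whose proteins restrain mTor complex 1, also rose: Sesn1 from 3.28 ± 0.118 to 10.7 ± 1.63 FPKM (1.44 ± 0.17) and Sesn2 from 52.8 ± 9.51 to 87.9 ± 11.4 FPKM (0.73 ± 0.08). The gene 9030617O03Rik, now named Dglucy, rose from 2.32 ± 1.56 to 6.61 ± 1.59 FPKM. Gadd45a, a growth arrest gene of the DNA damage response, fell from 71.2 ± 13 to 25.2 ± 9.56 FPKM (-1.51 ± 0.24, adjusted p = 0.0052), as did Sfn (-1.67 ± 0.40) and the receptor kinase Epha2 (-1.14 ± 0.28). The count of 15 went to 8 without Serum Oct4 GiP, to 8 without the line v6.5 and to 6 without the line Oct4 GiP. Of all genes 2969, 2673 and 1269 were called in these fits, against 5161 with all libraries. On the authors' scale 6 rose and 12 fell, where 9.76% of all tested genes were higher and 35.7% lower.

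Of the 32 regulators 12 fell and 5 rose in 2i against Serum, with a median of -0.10. Among all tested genes 18.9% were lower and 21.7% higher. On the authors' scale 17 regulators fell and 1 rose, beside 35.7% and 9.76% of all tested genes. Cdkn2a, whose locus encodes p16 and the Mdm2 inhibitor p19Arf, rose from 9.96 ± 4.86 to 31.5 ± 7.20 FPKM (1.63 ± 0.30, adjusted p = 0.0083); the table does not separate these transcripts. Mdm4 rose from 20.6 ± 1.14 to 30.7 ± 4.15 FPKM (0.55 ± 0.13, adjusted p = 0.017), and Wrap53, which starts beside Trp53 on the opposite strand, from 21.0 ± 2.14 to 32.2 ± 0.655 FPKM (0.60 ± 0.09); neither was called on the authors' scale (0.20 and 0.25). Npm1, a nucleolar protein that binds Arf, fell by 0.76 ± 0.11 on the log2 scale, the ubiquitin ligase gene Rfwd2 by 0.67 ± 0.11, the p53 inhibitor Ppp1r13l by 0.65 ± 0.15 and the methyltransferase Prmt5 by 0.63 ± 0.12. Npm1 and the ribosomal protein genes of the list have near-identical copies, so their values are uncertain. The count of 17 went to between 8 and 11 without any of the Serum libraries, 2i v6.5, 2i Oct4 GiP or the line E14. For example, it was 11 without Serum E14 and 9 without Serum v6.5. In those fits 2969 to 4102 of all genes were called, against 5161 with all libraries. The count was 6 without the line v6.5 (2673 of all genes) and 1 without the line Oct4 GiP (1269).

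In the BCL2 family 3 of 11 genes rose and 3 fell in 2i against Serum, beside 21.7% and 18.9% of all tested genes. On the authors' scale 2 of 11 rose and 6 fell, beside 9.76% and 35.7% of all tested genes. The BH3-only gene Bid rose (1.03 ± 0.11) and so did Bad (0.74 ± 0.10; 0.41 and not called on the authors' scale), while Bcl2l11, which encodes Bim, fell from 11.4 ± 2.54 to 3.71 ± 1.24 FPKM (-1.41 ± 0.22), beside Bok (-0.93 ± 0.18) and the survival gene Mcl1 (-0.57 ± 0.11). Beside Perp, 7 of 15 junction genes fell and 1 rose. Cldn6 fell from 55.9 ± 27.5 to 2.81 ± 1.48 FPKM (-3.84 ± 0.22), Epcam by 2.16 ± 0.19 and Cldn7 by 2.00 ± 0.22 on the log2 scale, and Dsg2, a desmosomal cadherin, rose from 6.5 ± 1.92 to 28.1 ± 5.20 FPKM (1.97 ± 0.19). The junction count of 8 went to 5 without Serum Oct4 GiP and to 4 without the line Oct4 GiP. Of all genes 2969 and 1269 were called there, against 5161 with all libraries.

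The contrast of Paused with 2i, the 2 inhibitor conditions, held the most calls among the 10 genes in FPKM (8, against 5 in each other comparison). It also held the most among all genes (5638, against 5161 for 2i and 2311 for Paused against Serum). On the authors' scale Paused against Serum held the most for both, with 10 of the 10 and 9827 of all genes. Paused against 2i had 8 and 7711 there. Phlda3, Btg2, Ccng1, Trp53inp1, Mdm2 and Zmat3 were lower in Paused, 6 of the 10, against 24.6% of all tested genes, and Trp53 and Pmaip1 were higher, 2 of the 10, against 19.8%. After median centring, all genes split into 3180 higher and 2645 lower, instead of 2517 and 3121. The median of the 10 genes was -0.55, beside -0.03 over all tested genes. On the authors' scale 7 were lower, where 54.5% of all genes were, and Pmaip1 alone was higher, where 6.21% of all genes were. Calls for Phlda3, Btg2, Ccng1, Trp53inp1, Trp53 and Pmaip1 were kept with each of the 9 libraries left out, those of Mdm2 in 7 of 9 and of Zmat3 in 4 of 9. With the line Oct4 GiP left out 5 of the 10 were called, and 2073 of all genes.

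Of the other targets 21 of 40 were lower and 5 higher in Paused against 2i, with a median of -0.49. Among all tested genes 24.6% were lower and 19.8% higher. Cdkn1a fell from 98.6, 107 and 134 FPKM to 16.0, 11.8 and 12.5 (-2.98 ± 0.17, adjusted p = 0.00031). Lower too were 9030617O03Rik (-2.34 ± 0.34), Plk2 (41.5 ± 17.3 to 9.69 ± 2.71 FPKM; -1.92 ± 0.33), the adenylate kinase gene Ak1 (127 ± 31.4 to 38.2 ± 13.9 FPKM; -1.73 ± 0.33) and Sesn2 (-1.32 ± 0.08, adjusted p = 0.00031). Gadd45a rose from 25.2 ± 9.56 to 95.6 ± 9.82 FPKM (1.94 ± 0.24) and Epha2 from 47.0 ± 17.5 to 137 ± 48.7 FPKM (1.54 ± 0.28). Bax was not called (-0.19 ± 0.08, adjusted p = 0.11). The count of 26 went to 14 with the line Oct4 GiP left out, where that of all genes went from 5638 to 2073.

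**Figure D3:**
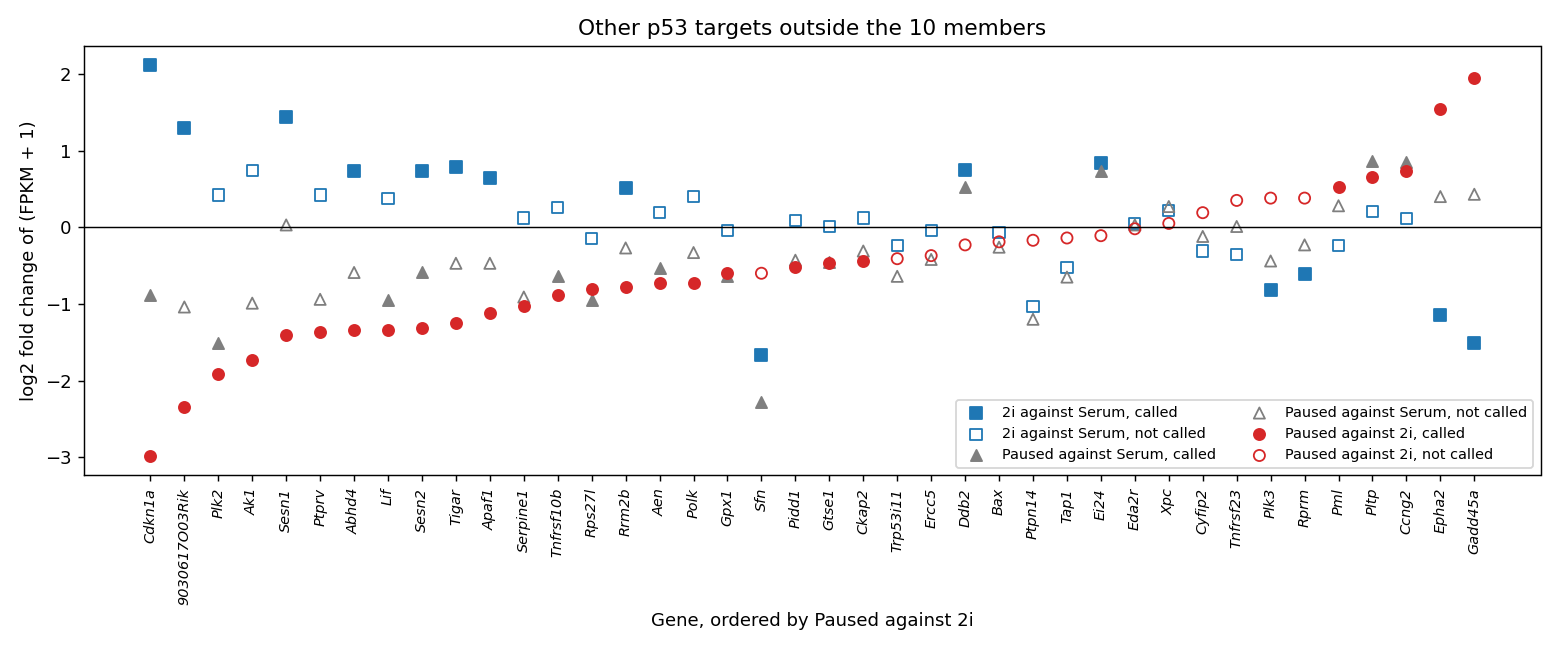
Log2 fold change of (FPKM + 1) of the 40 tested p53 targets outside the 10 genes, ordered by Paused against 2i, with filled symbols where limma called the change. Cdkn1a is lowest at -2.98 and Gadd45a highest at 1.94 in Paused against 2i, and these 2 genes are on opposite sides of 0 in 2i against Serum as well.

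Regulators in Paused against 2i were higher for 14 and lower for 5 of 32 genes in FPKM, with a median of 0.26. Among all tested genes 19.8% were higher and 24.6% lower. On the authors' scale 0 regulators were higher and 11 lower, beside 6.21% and 54.5% of all tested genes. Trp53bp1, which encodes a chromatin adaptor of DNA break repair, rose from 13.5 ± 2.61 to 25.1 ± 1.43 FPKM (0.86 ± 0.16), Rad50 by 0.80 ± 0.12, Sirt1 by 0.78 ± 0.13 and Atm by 0.68 ± 0.12 (log2); none of the 4 was called on the authors' scale. Cdkn2a fell from 31.5 ± 7.20 to 5.63 ± 3.01 FPKM (-2.36 ± 0.30, adjusted p = 0.0021), and Wrap53 fell (-1.07 ± 0.09). Mdm4 was not called (-0.26 ± 0.13, adjusted p = 0.14). The regulator count of 19 went to 12 without Paused Oct4 GiP, to 11 without the line v6.5 and to 4 without the line Oct4 GiP. Of all genes 3849, 3720 and 2073 were called in these fits, against 5638 with all libraries.

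Of the 11 BCL2 family genes 3 were higher and 3 lower in Paused against 2i, beside 19.8% and 24.6% of all tested genes. On the authors' scale 3 of 11 were higher and 5 lower, beside 6.21% and 54.5% of all tested genes. Bmf rose from 1.66 ± 0.330 to 9.56 ± 3.91 FPKM (1.92 ± 0.17), Bcl2l11 from 3.71 ± 1.24 to 10.5 ± 2.08 FPKM (1.31 ± 0.22) and Mcl1 from 116 ± 5.02 to 232 ± 38.6 FPKM (0.98 ± 0.11). Bad (-1.55 ± 0.10), Bid (-1.19 ± 0.11) and Bak1 (-0.53 ± 0.16, adjusted p = 0.035; 0.072 without the block) fell. Among junction genes 7 of 15 were higher, led by Cldn6 (3.05 ± 0.22) and Epcam (2.68 ± 0.19), (2 on the authors' scale) and 3 were lower, with Dsg2 (-1.66 ± 0.19) and Dsp (-1.24 ± 0.18), while Perp itself was not called. The junction count of 10 went to 4 with the line Oct4 GiP left out, where that of all genes went from 5638 to 2073.

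The likeness of the 10 genes to each other was described by Pearson's r of log2(FPKM + 1) over the 9 libraries, which share conditions, lines and scaling. Mdm2, Ccng1, Btg2, Phlda3 and Trp53inp1 had r of 0.86 to 0.98 with each other, and Zmat3 had 0.60 to 0.83 with those 5. In FPKM Trp53 ran against the group of 5, from -0.88 with Trp53inp1 to -0.67 with Mdm2. On the authors' scale r was not computed, and its sign may differ there. On that scale the mean of Trp53 was 1390 in Serum, 744 in 2i and 744 in Paused. In the same order Mdm2 had 185, 163 and 69.1, and Phlda3 182, 209 and 35.8. Perp, Bbc3 and Pmaip1 stood apart from this group, with r between -0.33 and 0.39 to its genes and to Zmat3, except for 0.67 between Perp and Zmat3.

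**Figure D4:**
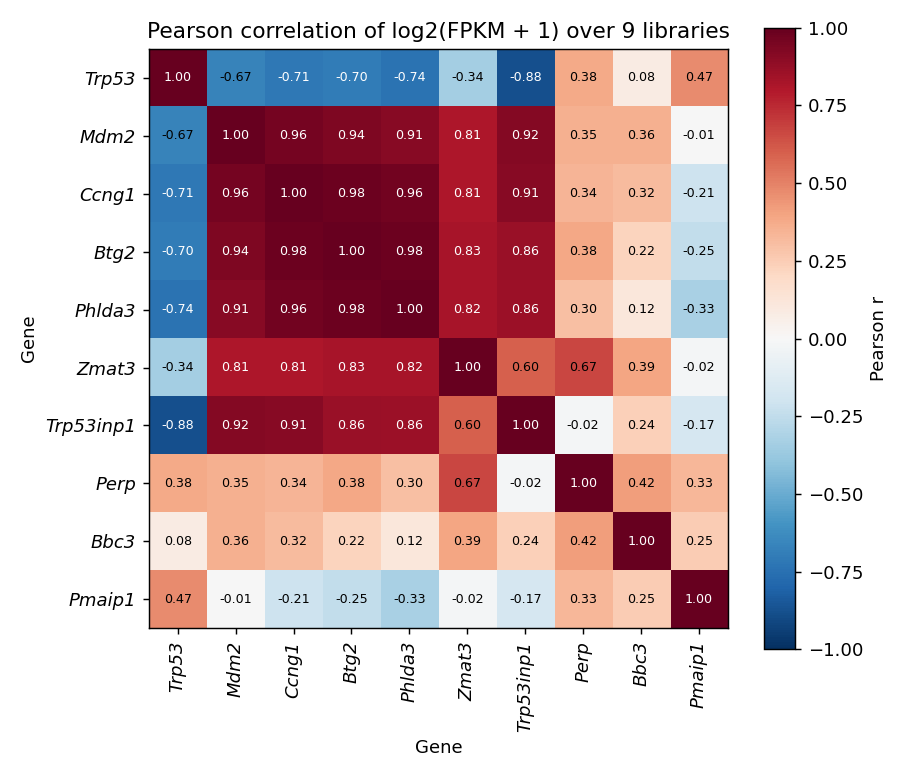
Pearson's r between each pair of the 10 genes over the 9 libraries, on the log2(FPKM + 1) scale, from -1 (blue) to 1 (red). The block of Mdm2, Ccng1, Btg2, Phlda3 and Trp53inp1 lies between 0.86 and 0.98, and the row of Trp53 is negative against all of them. The authors' scale is not shown.

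The genes most like each member were taken from 12085 ranked genes. Btg2 and Ccng1 both had the kinase gene Plk2 first (r = 0.989 and 0.988), and each had the other among its 3 nearest (0.983). Phlda3 was nearest to Lif (0.990), the self-renewal cytokine, Mtrr (0.985) and Tnfrsf10b (0.982), a death receptor, and had Btg2 at rank 7. Lif and Tnfrsf10b are on the list of other p53 targets. Mdm2 was nearest to Lpgat1 (0.974), Zdhhc23 (0.968) and Itm2a (0.963), with Ccng1 at rank 4. Trp53inp1 was nearest to the DNA polymerase gene Polk (0.967), Fam181b (0.963) and the apoptosome gene Apaf1 (0.956), of which Polk and Apaf1 are on that list too.

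For the other members the nearest gene of the 10 stood further down the ranks: Btg2 at rank 169 for Zmat3 (r = 0.828), Perp at 374 for Bbc3, Zmat3 at 769 for Perp, Trp53 at 2518 for Pmaip1 and Pmaip1 at 3295 for Trp53. Trp53 was nearest to Prss36 (0.990), Syf2 (0.987) and 5530601H04Rik (0.985). Perp was nearest to Fam162a (0.973), Gal3st1 (0.968) and Gmpr (0.960), Zmat3 to Tomm7 (0.966), Fabp5 (0.959) and Hilpda (0.950), and Pmaip1 to Pgm2l1 (0.961), Rassf1 (0.952) and Samd11 (0.948). Bbc3 had the weakest likeness, with the microRNA gene Mir8111 first at 0.895, then Tek (0.799) and Grb10 (0.772).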

How the data were processed

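The authors deposited 1 table with 2 values for each of the 9 libraries: FPKM from Cuffnorm on mm10, per the submitters' processing notes, and a normalized expression value that equals FPKM times 1 constant per library. The sources used here name no version, aligner, annotation or strand setting, and the table holds no counts, so depth is unknown. Of 29801 rows, 5644 without a gene name (52.8% to 64.0% of a library's summed FPKM) and 113 identical repeats were left out. Genes with FPKM of at least 1 in 3 libraries, 12711 in all, were tested with limma-trend (limma 3.58.1, R 4.3.3) on log2(FPKM + 1), which understates changes of low genes, with the line as a block and Benjamini-Hochberg adjustment over all tested genes (threshold 0.05). The line pairs the libraries per the labels; deviations from condition means correlated at -0.001 to 0.401 within lines and at -0.243 to 0.094 between lines. With the line as a block, differences in level between lines are taken out. P-values then weigh the mean difference of a comparison against how far differences among all 3 conditions varied across these 3 lines. The spread estimate is shared in part between genes. Exact permutation of 3 against 3 libraries cannot go below p = 0.1 and was not used. The fit was tested on simulated data. No annotated gene overlaps any of the 10 genes in GENCODE vM21.

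The members and gene lists were chosen with earlier results of these data known. Named genes of the target, regulator and BCL2 lists are the called ones with the largest changes (up to 6 per list and comparison, with a mean of 5 FPKM or more in the condition where they are higher), up to 4 of the junction list, and Cdkn1a, Mdm4, Bax and Sesn2. Bax is on 2 lists. 1 list gene on several rows and 1 joined with another symbol were left out. Alternatives were a pseudocount of 0.1, no filter, no block, the authors' normalized values, median centring, no trend, and each library or line left out. The order count was not planned on either scale and was added after seeing the data.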

Additional observations from a re-analysis of the deposited data

Results flagged for a closer look

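In 4 cases lines moved in opposite directions by more than 0.25 (log2 of FPKM + 1) under the same contrast. Each line has 1 library per condition, so the difference was not tested in any of them. For Bbc3 in Paused against Serum, E14 was at 0.43 and v6.5 at -0.37, a difference of 0.80. Pmaip1 in Paused against Serum stood at 0.32 in E14 and -0.35 in Oct4 GiP, a difference of 0.66. For Bbc3 in Paused against 2i the values were 0.55 in E14 and -0.44 in Oct4 GiP, a difference of 0.99. Perp in Paused against 2i was at 0.87 in E14 and at -0.75 in v6.5, a difference of 1.62. In all 4 cases E14 was the line with the higher value; groups of 3 libraries are too small to test for a library that stands apart.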

How the results depend on the processing

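Directions held more often than calls. In the authors' normalized values 3 differences that were not called in FPKM became calls of the other sign: Trp53 in Paused against Serum (from 0.03 to -0.90), Pmaip1 in Paused against Serum (from 0.00 to -0.89) and Bbc3 in Paused against 2i (from 0.02 to -0.53). Mdm2 in 2i against Serum also changed sign (from 0.19 to -0.18) and was called on neither scale. There, 10 of the 10 genes and 9827 of all genes were called in Paused against Serum (5 and 2311 in FPKM), and 63 of all genes in the F test over lines (191 in FPKM). Without the line as a replicate block, 3 of the 10 genes were called in 2i against Serum, and 0 of the 10 and 8 of all genes over lines; Pmaip1 and Trp53inp1 lost calls as given above. With no filter 0 of the 10 and 10 of all genes were called over lines, and with no trend 46 of all genes. With a library or line left out, counts ran as follows. In Paused against Serum they were 0 to 5 of the 10 genes and 4 to 3223 of all genes. In 2i against Serum they were 1 to 7 and 1269 to 5436 (5161 with all libraries). In Paused against 2i they were 5 to 9 and 2073 to 5611 (5638 with all libraries). Over lines they were 0 to 1 and 7 to 71. Leaving out a library also leaves fewer samples for the fit, and a lone library is assumed to vary like the others. Median centring changed the split of all genes in 2i against Serum from 2762 higher and 2399 lower to 2181 higher and 3263 lower, and in Paused against 2i from 2517 higher and 3121 lower to 3180 higher and 2645 lower. Over the 10 genes and 9 single libraries left out, 0 called values changed sign in the 90 results per comparison; 29 calls were lost in Paused against Serum, 10 in 2i against Serum and 7 in Paused against 2i. The depth of the libraries is unknown, so no limit from counting can be given for low genes such as Pmaip1 in 2i.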
